A study of Mus musculus with 2 samples.

Results

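The genes of glycolysis and lactate transport were followed through 5 cell classes of the mouse retina after sodium iodate. The set holds 35 of the 31053 genes measured, chosen by name and with earlier results of these data known. Counts set against all genes therefore describe this set and do not test it. It covers glucose transporters, the enzymes from hexokinase to pyruvate kinase, lactate dehydrogenases, lactate transporters and their partner basigin. It also holds genes for the mitochondrial entry of pyruvate and the enzymes that set fructose 2,6-bisphosphate. All 35 symbols were found, and 34 had a UMI in the rods of at least 1 library. A UMI (unique molecular identifier) stands for 1 captured transcript. Single-cell RNA sequencing in 10x droplets had been run on 2 groups of mice. The NaIO3 group received 20 mg of sodium iodate per kg in PBS (phosphate-buffered saline) by a vein, and the control group received PBS alone. Retinas were taken on day 7. Each group was 1 library of the pooled retinas of 6 mice; strain, sex and age are not given in the sources used here. The labels call both libraries CD11b+ microglia, but their protocol names CD11b beads for the NaIO3 pellets alone, and rods were the commonest cells in both. With 1 library a group, nothing could be set against the spread of replicates, and no p-value is given. Treatment, bead selection and library cannot be told apart. All intervals are 95% intervals and cover counting error only.

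Glycolysis splits glucose into pyruvate in the cytosol. The retina is known for aerobic glycolysis: photoreceptors turn most of their glucose into lactate although oxygen is present, and they are known for high hexokinase 2. Lactate leaves cells through monocarboxylate transporters, which need basigin to reach the membrane, and the retinal pigment epithelium behind the photoreceptors passes glucose inwards and takes lactate up. Sodium iodate is an oxidant that damages that epithelium, and photoreceptors degenerate afterwards. In Müller glia and neurons some of these steps are run by other isoenzymes, encoded by other genes.

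Cells were sorted into classes by marker genes, and a class's UMIs were summed in each library and scaled to a common total (CPM). Rods numbered 5094 in PBS and 5267 in NaIO3, cones 115 and 76, bipolar cells 51 and 436, Müller glia 30 and 150, and microglia 10 and 1504. Since cells were gated on these markers, finding them among a class's leading genes was partly fixed beforehand and does not test the names. Among the 10 genes that most set a class apart from the others, 3 to 8 were its own markers. PBS Müller glia also had 2 vascular markers there, Flt1 and Kdr. Outside the rods, cells carrying much rod RNA were left out. The libraries also differed in ways other than the 35 genes. The median mitochondrial share of a rod's UMIs was 6.99% in PBS and 2.0% in NaIO3. The nuclear RNA Malat1 stood at 44832 and 48591 CPM over all rods, but it differed more between rods of like mitochondrial share, as given below. The libraries shared 24 cell barcodes.

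Promoter sequence is shown first for 4 members, since the genes that were lower in NaIO3 rods can be set beside genes of the same pathway that were not. ACGTG is the core of the element bound by hypoxia-inducible factors, and CACGTG, which contains it on both strands, is the E-box bound by MYC and related factors. Among the 27 members measured well enough in rods, 8 had a single RefSeq promoter window with no annotated exon in its upstream bases. Of these, the 2 with the lowest and the 2 with the highest NaIO3 ratio in rods were taken. The 250 bases before each start are given 5′ to 3′ on the gene's strand, from RefSeq on GRCm38.p6, with ACGTG on either strand in capitals. Pgam1 (chr19:41911621-41911870, plus strand) and Slc16a1 (chr3:104638414-104638663, plus strand) were lower in NaIO3 rods. Pdha1 (chrX:160138431-160138680, minus strand) and Dlat (chr9:50659781-50660030, minus strand) were not.
Pgam1: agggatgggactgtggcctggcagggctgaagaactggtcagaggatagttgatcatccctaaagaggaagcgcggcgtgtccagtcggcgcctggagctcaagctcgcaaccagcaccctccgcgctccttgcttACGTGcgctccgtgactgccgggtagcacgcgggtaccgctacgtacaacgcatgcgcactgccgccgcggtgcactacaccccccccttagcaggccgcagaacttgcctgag
Slc16a1: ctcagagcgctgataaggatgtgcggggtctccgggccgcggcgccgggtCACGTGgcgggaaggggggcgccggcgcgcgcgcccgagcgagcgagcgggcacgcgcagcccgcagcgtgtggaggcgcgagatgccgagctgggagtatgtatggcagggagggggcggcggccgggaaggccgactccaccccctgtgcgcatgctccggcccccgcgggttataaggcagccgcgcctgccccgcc
Pdha1: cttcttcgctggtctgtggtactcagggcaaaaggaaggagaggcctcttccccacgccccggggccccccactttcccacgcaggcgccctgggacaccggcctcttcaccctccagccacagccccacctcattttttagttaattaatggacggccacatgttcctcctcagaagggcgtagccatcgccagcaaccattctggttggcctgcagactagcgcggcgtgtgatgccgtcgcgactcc
Dlat: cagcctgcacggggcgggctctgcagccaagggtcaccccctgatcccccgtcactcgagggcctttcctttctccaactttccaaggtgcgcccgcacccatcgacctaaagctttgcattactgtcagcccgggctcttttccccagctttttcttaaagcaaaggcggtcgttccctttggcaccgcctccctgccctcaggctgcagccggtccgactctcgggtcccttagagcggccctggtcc
The Pgam1 window held ACGTG at 1 place, and the Slc16a1 window held it within a CACGTG. The Pdha1 and Dlat windows held neither. Over all members, 33 matched the RefSeq table and 22 of their 53 windows of 300 bases (41.5%) held ACGTG on either strand, against 6447 of 32851 windows of all genes (19.6%). By the rod comparison below, 9 of 17 windows (52.9%) of the lower members held it, 2 of 3 (66.7%) of the higher ones, and 6 of 17 (35.3%) of those past neither limit. These are letter matches, and binding was not measured.

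In rods, most glycolytic enzymes were lower in the NaIO3 library. A gene counted as measured when it reached 20 CPM in the PBS or the NaIO3 rods and 20 UMIs over both. Of the 27 such members, 12 were at least 1.5-fold lower, 2 were at least 1.5-fold higher, and 13 were neither. Of all 7166 genes so measured in rods, 8.67% were that much lower and 28.3% that much higher. The members' median ratio of NaIO3 over PBS was 0.678, and that of all genes was 1.21. Summed over the 35 genes, the level was 18659 CPM in PBS rods and 11148 CPM in NaIO3 rods, a ratio of 0.597. CPM is a share of a cell's RNA, so a change in any abundant transcript moves all others. With TMM scaling, which sets most genes level, each rod ratio fell by 0.36 on the log2 scale. The members lower were then 19 and those higher 1, and of all genes 1469 were lower and 852 higher. The share of all called genes that were higher went from 76.6% to 36.7% (39.5% with median-of-ratios scaling).

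**Figure D1:**
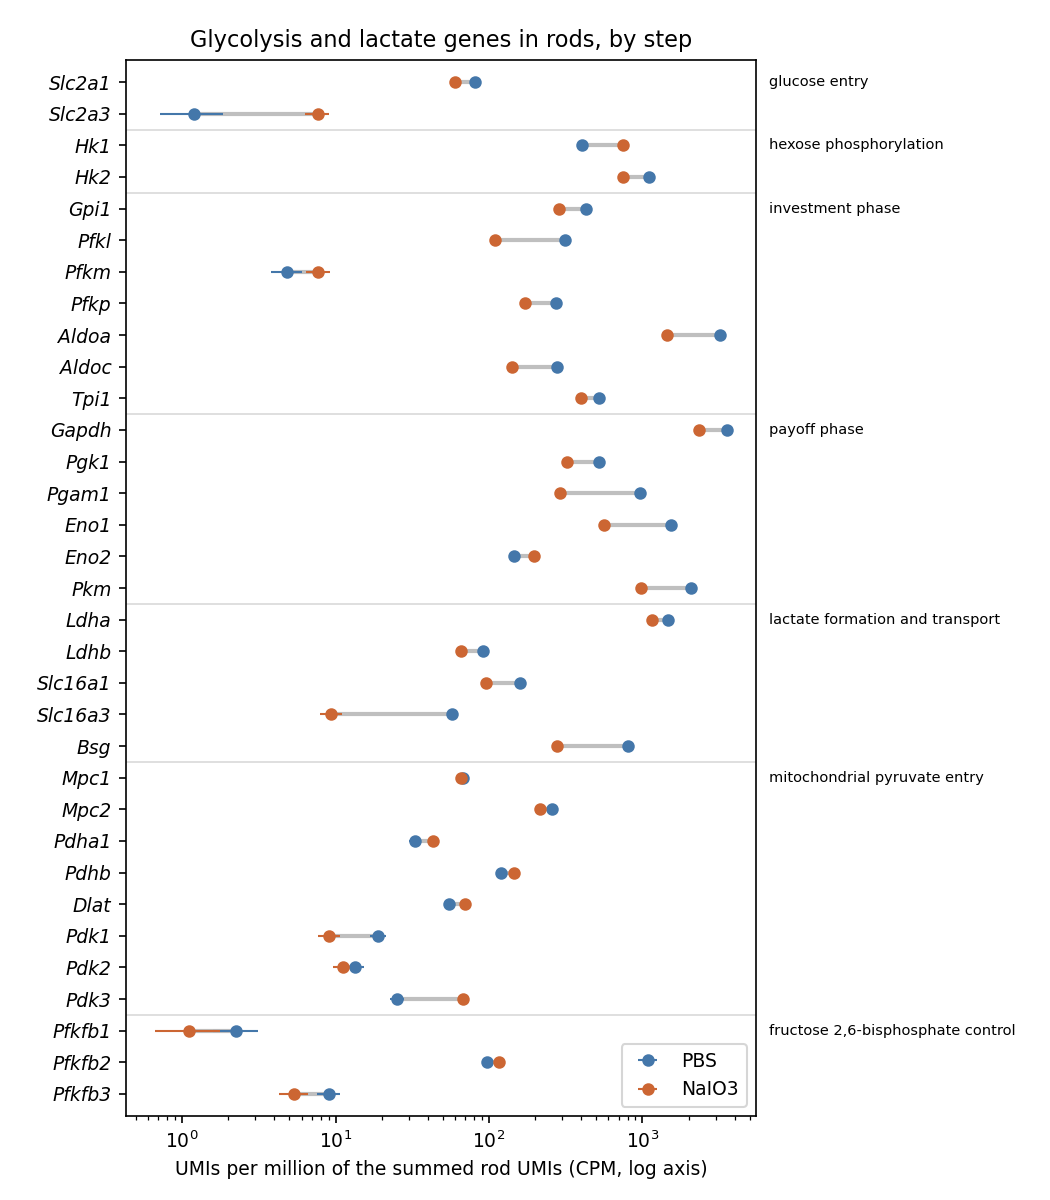
Levels of the members with a UMI in both libraries, in rods, as CPM on a log axis, ordered by pathway step. Points are the 2 libraries and bars are exact Poisson 95% intervals; NaIO3 lies left of PBS through most of the investment and payoff phases, and to the right for Hk1 and Pdk3.

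Glucose entry was low in rods on the RNA level. Slc2a1, the main glucose carrier GLUT1, stood at 81.2 CPM in PBS rods and 59.7 CPM in NaIO3 rods, a ratio of 0.735 (0.675 to 0.80). Slc2a3, the neuronal carrier GLUT3, had 19 and 123 UMIs, or 1.19 and 7.63 CPM, a ratio of 6.41 (3.94 to 11.01), but under the level limit in both libraries. The Slc2a1 intervals did not overlap between libraries, but its difference was under 1.5-fold.

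Hexokinase traps glucose as glucose 6-phosphate, and its 2 genes went apart in rods. Hk2, the form photoreceptors are known for, had 1099 CPM in PBS and 745 CPM in NaIO3, a ratio of 0.678 (0.663 to 0.694). Hk1, the form of most neurons, stood at 405 CPM and 742 CPM, a ratio of 1.83 (1.78 to 1.89). Their sum was 1504 CPM and 1487 CPM, so by CPM the family's level differed little. TMM scaling lowers the ratio of that sum by 0.36 on the log2 scale. The family's make-up differed: Hk1 was 26.9% (26.4 to 27.5) of hexokinase UMIs in PBS rods and 49.9% (49.2 to 50.5) in NaIO3 rods. With TMM scaling the log2 ratio of Hk1 was 0.51, against 0.87 by CPM, which is under 1.5-fold.

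The investment phase, from glucose 6-phosphate to the triose phosphates, summed to 4994 CPM in PBS rods and 2559 CPM in NaIO3 rods. Of its 7 members 6 were measured well enough, and 4 were lower. Aldoa, the aldolase that cleaves fructose 1,6-bisphosphate, stood at 3184 and 1449 CPM, a ratio of 0.455 (0.448 to 0.462). Pfkl, the liver form of phosphofructokinase and the main regulated step, stood at 311 and 109 CPM, a ratio of 0.350 (0.331 to 0.369). Pfkp, the platelet form, stood at 272 and 172 CPM, a ratio of 0.631 (0.601 to 0.662). Pfkl exceeded Pfkp in PBS rods and Pfkp exceeded Pfkl in NaIO3 rods. Aldoc, the brain aldolase, stood at 276 and 141 CPM, a ratio of 0.511 (0.485 to 0.537). Gpi1, which makes fructose 6-phosphate, and Tpi1, which interconverts the trioses, had ratios of 0.669 (0.645 to 0.695) and 0.761 (0.736 to 0.786). Gpi1 thus lay just short of the 1.5-fold limit. Pfkm, the muscle form, had 77 and 124 UMIs.

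The payoff phase, which yields ATP, was lower by about the same factor, 8797 against 4683 CPM, and 5 of its 6 members were lower. Pgam1, phosphoglycerate mutase, had 970.3 CPM in PBS and 289.9 CPM in NaIO3, a ratio of 0.299 (0.289 to 0.309). Eno1, the enolase of most tissues, stood at 1528 and 564 CPM, a ratio of 0.369 (0.360 to 0.378). Pkm, the pyruvate kinase gene, whose M1 and M2 splice forms these counts do not separate, stood at 2087 and 982 CPM, a ratio of 0.471 (0.462 to 0.480). These enzymes catalyse 3 successive steps, and each had a ratio under that of the steps before them, Gapdh and Pgk1. Gapdh, the most abundant member, stood at 3546 and 2329 CPM, a ratio of 0.657 (0.648 to 0.665). Pgk1, phosphoglycerate kinase, stood at 521 and 323 CPM, a ratio of 0.621 (0.599 to 0.643). Eno2, the neuronal enolase, went the other way, at 145 and 195 CPM, a ratio of 1.35 (1.28 to 1.43). The Eno1b retrocopy of Eno1 had 31 and 37 UMIs in rods, against 24381 and 9083 for Eno1, and a gene model with the Aldoa symbol had 4 and 4.

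For lactate, the ratios of the dehydrogenases lay above those of the transporters and basigin. Ldha, the form that favours lactate, stood at 1471 CPM in PBS rods and 1152 CPM in NaIO3 rods, a ratio of 0.783 (0.768 to 0.798). Ldhb, the form that favours pyruvate, stood at 91.7 and 65.5 CPM, a ratio of 0.715 (0.660 to 0.774). Ldha made up 94.1% (93.8 to 94.4) and 94.6% (94.3 to 94.9) of the family in the 2 libraries. Bsg, basigin, which carries monocarboxylate transporters to the membrane, stood at 800.5 and 276 CPM, a ratio of 0.345 (0.333 to 0.357). Slc16a1, the transporter MCT1, stood at 159 and 95.6 CPM, a ratio of 0.601 (0.564 to 0.640). Slc16a3, the export transporter MCT4, had the lowest ratio of all members measured in rods: 57.2 CPM from 912 UMIs in PBS and 9.37 CPM from 151 UMIs in NaIO3, a ratio of 0.164 (0.137 to 0.195). Its share of the transporters' UMIs was 26.4% (25 to 27.9) in PBS and 8.93% (7.62 to 10.4) in NaIO3. Slc16a8, the MCT3 of pigment epithelium, had 0 UMIs in all 5 classes of both libraries. In rods the upper 95% limit for a count of 0 was 0.231 CPM in PBS and 0.229 CPM in NaIO3.

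Most genes of the mitochondrial end of the pathway differed less. Members of pyruvate entry summed to 593 CPM in PBS rods and 629 CPM in NaIO3 rods. Pdha1, Pdhb and Dlat, subunits of the pyruvate dehydrogenase complex, had ratios of 1.32 (1.18 to 1.49), 1.22 (1.14 to 1.29) and 1.28 (1.17 to 1.4). With TMM scaling their log2 ratios were 0.05, -0.08 and -0.01, so the direction of Pdhb and Dlat turns with that scaling. Mpc1 and Mpc2, which form the mitochondrial pyruvate carrier, had ratios of 0.967 (0.887 to 1.05) and 0.833 (0.796 to 0.871). With TMM scaling their log2 ratios were -0.41 and -0.62, the latter past 1.5-fold. Pdk3, a kinase that switches pyruvate dehydrogenase off, had the highest ratio among the members measured well enough in rods, at 25.2 CPM from 402 UMIs and 67.8 CPM from 1092 UMIs, 2.69 (2.4 to 3.02). Its relatives were scarcer: Pdk1 had 302 and 146 UMIs, Pdk2 215 and 180, and Pdk4 1 and 0. Pdk3 made up 43.7% (40.5 to 47.0) of the kinases' UMIs in PBS rods and 77.0% (74.7 to 79.2) in NaIO3 rods.

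Of the enzymes that make or break fructose 2,6-bisphosphate, the activator of phosphofructokinase, Pfkfb2 was the common one in rods. It stood at 96.8 and 117 CPM, a ratio of 1.21 (1.13 to 1.29), or -0.09 on the log2 scale with TMM scaling. Pfkfb3, the form with the strongest kinase activity, had 144 and 86 UMIs, and Pfkfb1 36 and 18.

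Since the mitochondrial share differed between the libraries, rods were compared at like shares. They were split into 5 ranges between 0% and 15%, and the ranges were averaged with equal weights in both libraries. Of 28 members measured, 13 were then lower and 2 higher, against 14.0% and 17.0% of 7338 genes. The members' median ratio was 0.685 and that of all genes 1.05. The same 11 members were lower with and without the matching: Pfkl, Pfkp, Aldoa, Aldoc, Pgk1, Pgam1, Eno1, Pkm, Slc16a1, Slc16a3 and Bsg. Hk1 and Pdk3 were higher both times, at matched ratios of 1.98 (1.90 to 2.07) and 2.87 (2.43 to 3.40). Hk2 passed the limit only when matched, 1262 against 732 CPM, a ratio of 0.580 (0.562 to 0.598). Pdk1 had a ratio of 0.479 (0.390 to 0.585) unmatched and 0.461 (0.355 to 0.599) matched, and was counted only when matched, since its PBS level of 18.9 CPM became 20.6 CPM and so passed the level limit. Pgam1 and Eno1 had matched ratios of 0.382 (0.366 to 0.399) and 0.395 (0.383 to 0.408).

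Some ratios varied over the ranges. Aldoa, Pkm and Bsg stayed below 1, at 0.338 to 0.555, 0.284 to 0.639 and 0.351 to 0.548. Mpc2, Pfkfb2 and Ldhb, among others, changed side, at 0.644 to 1.26, 0.786 to 1.44 and 0.662 to 1.26. Gapdh changed side too, and was the 1 member lower without the matching and past neither limit with it. In rods with under 2% mitochondrial UMIs its level was 2049 CPM in PBS and 2279 CPM in NaIO3, a ratio of 1.11 (1.07 to 1.16). In rods with 10% to 15% it stood at 4004 and 1871 CPM, a ratio of 0.467 (0.420 to 0.519). The PBS level was higher at each higher range, from 2049 over 2401, 3182 and 3903 to 4004 CPM, while the NaIO3 level lay between 1871 and 2412 CPM throughout. Matched, Gapdh had a ratio of 0.847 (0.832 to 0.863). Median depth moved too, from 1678 to 2891 UMIs between the lowest and highest range in PBS and from 2265 to 1525 UMIs in NaIO3. Its part in the result was not tested.

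**Figure D2:**
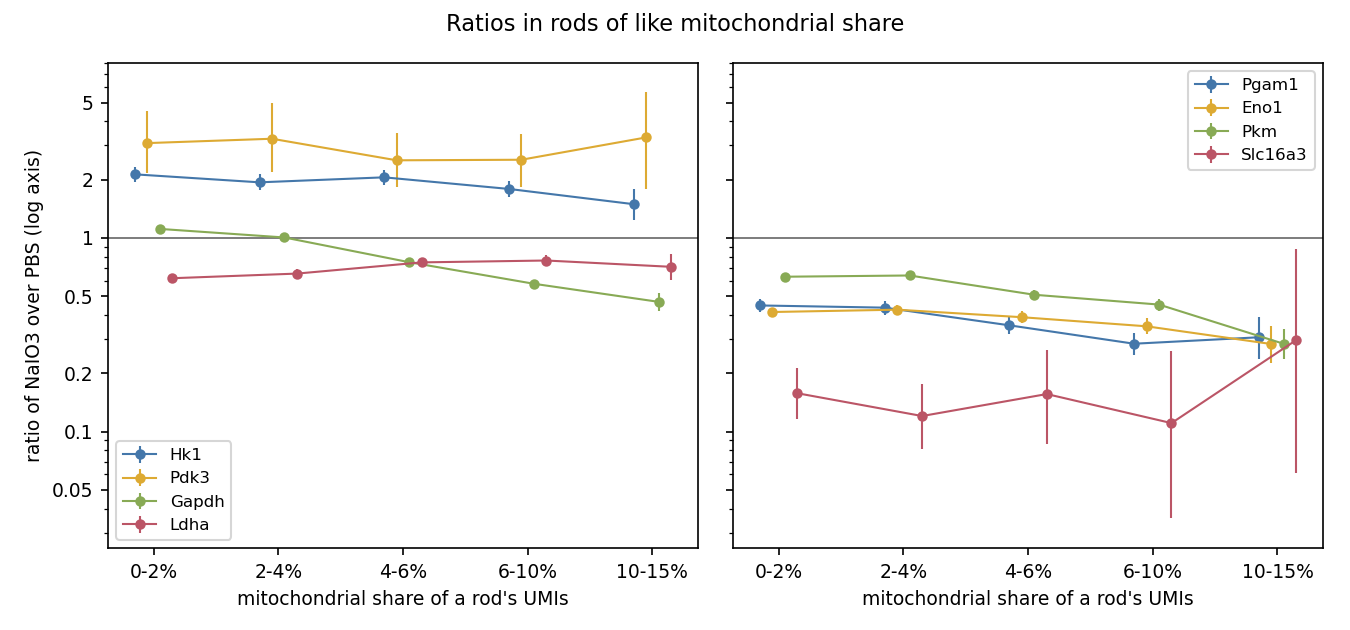
Ratio of NaIO3 over PBS (log axis) for 8 members in rods of 5 ranges of mitochondrial UMI share; bars are exact 95% intervals for counting error. Hk1 and Pdk3 stay above 1 and Ldha, Pgam1, Eno1, Pkm and Slc16a3 below 1 in each range, while Gapdh goes from 1.11 to 0.467.

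Of the NaIO3 rods with 1500 to 5000 UMIs, 2333 had a UMI of the injury transcripts Edn2 or Fgf2 and 890 had neither these nor Ifit1 or Ifit3. Pgam1 stood at 285.7 CPM in those with Edn2 or Fgf2, 290.1 CPM in those without, and 942 CPM in PBS rods of that depth. Eno1 stood at 559, 546 and 1549 CPM, and Bsg at 264, 258 and 734 CPM. For these 3 genes, both NaIO3 groups lay near each other and under PBS rods. A rod with no such UMI may still hold the transcript: the median depth was 2659 UMIs in the rods with Edn2 or Fgf2 and 2204.5 in those without, and 206 of 3692 PBS rods of that range had an Edn2 or Fgf2 UMI. Slc16a1 stood at 90.2, 117 and 151 CPM, a ratio between the first groups of 0.774 (0.667 to 0.901). Among other members, that ratio was 1.24 (1.17 to 1.32) for Hk1, 1.22 (1.13 to 1.33) for Tpi1 and 0.790 (0.690 to 0.906) for Pfkfb2.

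Cones also had lower Pgam1, Eno1 and Pkm and higher Hk1. Of 27 members measured, 10 were at least 1.5-fold lower and 3 higher, against 16.2% and 23.3% of 7288 genes. The members' median ratio was 0.771 and that of all genes 1.08. With TMM scaling, which shifts cone log2 ratios by -0.15, the lower were 12 and the higher 1. Of all genes 1583 were then lower and 1241 higher, and the share of called genes that were higher went from 59.0% to 43.9%. Eno1 had 970.02 CPM in PBS and 302 CPM in NaIO3, a ratio of 0.312 (0.262 to 0.368). Pfkl stood at 148 and 41.3 CPM, a ratio of 0.279 (0.170 to 0.439), from 147 and 22 UMIs. Pgam1 stood at 664 and 252 CPM, a ratio of 0.379 (0.312 to 0.456). Aldoa, Aldoc, Pkm, Slc16a1 and Bsg, with these 3, made up the 8 members lower in both rods and cones. Their cone ratios were 0.508 (0.463 to 0.557), 0.549 (0.410 to 0.727), 0.557 (0.501 to 0.619), 0.490 (0.341 to 0.689) and 0.492 (0.420 to 0.575).

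Ldhb at 0.662 (0.460 to 0.936) and Mpc1 at 0.604 (0.395 to 0.902) passed the 1.5-fold limit in cones and not in rods. In rods Ldhb was below 1 too, at 0.715 (0.660 to 0.774), a value inside its cone interval. With TMM scaling its log2 ratio was -0.84 in rods and -0.74 in cones, past 1.5-fold in both. Mpc1 in rods was at 0.967 (0.887 to 1.05). The difference between the classes was not tested. Hk1 was higher in both photoreceptor types, in cones at 274 and 430 CPM, a ratio of 1.57 (1.31 to 1.87). With TMM scaling its cone log2 ratio was 0.50, which, as in rods, is under 1.5-fold. Dlat at 1.53 (1.007 to 2.31) and Pfkfb2 at 1.73 (1.08 to 2.76) were also higher, on 55 and 45 and on 41 and 38 UMIs. With TMM scaling their log2 ratios were 0.47 and 0.65, so that Pfkfb2 alone of the 3 stayed past 1.5-fold. Pgk1 had a ratio of 1.02 (0.863 to 1.21), against 0.621 in rods. The median mitochondrial share of cones was 11.3% in PBS and 6.05% in NaIO3, and only the range between 6% and 10% held 20 cones of each library. There, with 29 PBS and 28 NaIO3 cones, the ratios were 0.349 (0.264 to 0.461) for Eno1, 0.423 (0.310 to 0.579) for Pgam1 and 1.68 (1.21 to 2.33) for Hk1. Mpc1 was at 0.474 (0.236 to 0.952) there. Ldhb at 0.904 (0.533 to 1.54) and Pfkfb2 at 1.33 (0.563 to 3.12) no longer passed 1.5-fold, and Dlat turned to 0.762 (0.370 to 1.57). The Malat1 level of cones was 38820 CPM in PBS and 80116 CPM in NaIO3, and its part in these ratios was not tested.

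**Figure D3:**
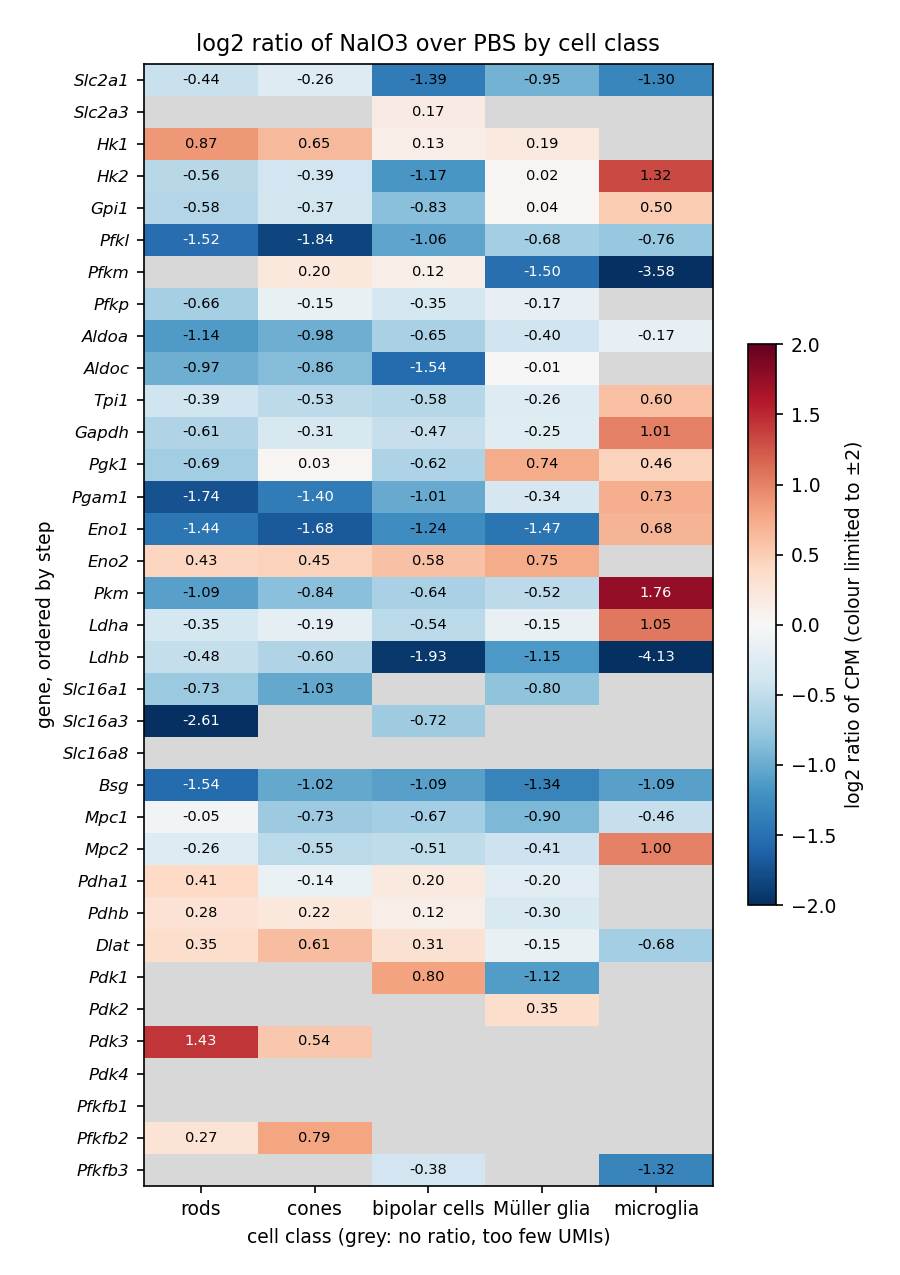
log2 ratio of NaIO3 over PBS for each member and class, as colour and number; grey marks members without enough UMIs or with 0 UMIs in a library. Bsg and Pfkl are below 0 in all 5 classes, and the microglia column rests on 10 PBS cells.

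Bipolar cells, which relay photoreceptor signals, had 51 cells in PBS. Of 28 members 14 were lower and 1 was higher, against 21.5% and 22.0% of 7769 genes, with a median ratio of 0.662 for the members and 1.008 for all genes. Pgam1 stood at 1511 and 752 CPM, a ratio of 0.498 (0.455 to 0.546). Eno1 stood at 884 and 375 CPM, a ratio of 0.424 (0.376 to 0.480). Bsg stood at 1113 and 522 CPM, a ratio of 0.469 (0.422 to 0.523). Aldoc, Ldhb and Slc2a1 were lower still, at 0.343 (0.278 to 0.426), 0.262 (0.138 to 0.515) and 0.381 (0.246 to 0.605). Hk1, the main hexokinase of this class, stood at 269 and 296 CPM, a ratio of 1.10 (0.896 to 1.35), while Hk2 stood at 68.0 and 30.3 CPM, a ratio of 0.445 (0.286 to 0.714). The 1 higher member, Pdk1, rested on 13 PBS UMIs, at 1.74 (0.990 to 3.34). The median mitochondrial share was 9.62% in PBS and 5.46% in NaIO3, and its part was not tested. Cells at or under 5% numbered 2 in PBS.

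Müller glia, the radial glia of the retina, had 30 cells in PBS, and 9 of 27 members were lower and 2 higher. Here the shares of all 7969 genes were 29.4% and 19.5%, so the count lower was near that of genes at large. The members' median ratio was 0.811 and that of all genes 0.894. With TMM scaling, which shifts the log2 ratios by 0.25, the share of called genes that were higher went from 39.9% to 60.3% (49.3% with mean per-cell CPM). The members lower with TMM scaling were 7 and higher 3, and of all genes 1507 were lower and 2290 higher. Eno1 and Bsg stood out by level: Eno1 had 3687 CPM in PBS glia and 1332 CPM in NaIO3 glia, a ratio of 0.361 (0.331 to 0.394), and Bsg at 3289 and 1303 CPM, a ratio of 0.396 (0.362 to 0.434). Slc2a1, by which glia take up glucose, stood at 403 and 209 CPM, a ratio of 0.517 (0.402 to 0.674). Slc16a1 stood at 177 and 102 CPM, a ratio of 0.574 (0.393 to 0.862). Ldhb stood at 505 and 228 CPM, a ratio of 0.451 (0.358 to 0.571), and Ldha at 231 and 208 CPM, a ratio of 0.90 (0.654 to 1.27). Pgk1 was higher, from 37 and 537 UMIs, at 199 and 331 CPM, a ratio of 1.67 (1.19 to 2.39). Without the limit on rod RNA, which lets 76 PBS and 614 NaIO3 cells in, its log2 ratio was -0.23. Aldoc, an astroglial marker enzyme, was level, at 828 and 823 CPM, a ratio of 0.995 (0.841 to 1.18).

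Microglia, the resident immune cells, had 10 PBS cells with 24509 UMIs in all, so that 1 UMI is worth 40.8 CPM. Of 25 members measured, 8 were higher and 7 lower, against 11.9% and 36.8% of 7239 genes, but 17 of the 25 had 3 PBS UMIs or fewer. The interval left out 1 for 2 of the higher members, Gapdh at 2.02 (1.31 to 3.30) and Pkm at 3.39 (1.16 to 16.5), and for 2 of the lower, Ldhb at 0.057 (0.034 to 0.103) and Bsg at 0.470 (0.269 to 0.910). Ldhb had 15 UMIs and 612 CPM in PBS and 685 UMIs and 34.9 CPM in NaIO3. With no limit on rod RNA, where 19 PBS and 1768 NaIO3 cells enter, 18 members were lower and 2 higher, and the log2 ratio of Gapdh was -0.34. The shares of all genes at that setting are not given here. With TMM scaling, which shifts log2 ratios by 0.79, 2 members were lower and 11 higher. Of all genes 1588 were then lower and 1925 higher, and the share of all called genes that were higher went from 24.4% to 54.8%. The direction in microglia thus hangs on these choices. The NaIO3 levels are firm within counting error: Gapdh 1647 CPM, Ldha 422 CPM, Pkm 416 CPM, Aldoa 398 CPM and Hk2 203 CPM. Each was under its level in the rods of either library.

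Isoenzyme use differed between classes in both libraries. Of 33 combinations of family and class with at least 20 UMIs in each library, the leading isoenzyme differed between libraries in 5. These were Pfkl to Pfkp in rods and cones, Eno1 to Eno2 in cones, Slc2a1 to Slc2a3 in bipolar cells, and Ldhb to Ldha in microglia, the last from 20 PBS UMIs. In PBS bipolar cells Slc2a1 had 29 UMIs and Slc2a3 19, a Slc2a1 share of 60.4% (45.3 to 74.2), so that lead is not settled. In NaIO3 cones Pfkp had 43 UMIs, Pfkm 29 and Pfkl 22. Hk2 led in photoreceptors, with 73.1% (72.5 to 73.6) of hexokinase UMIs in PBS rods and 78.0% (75.6 to 80.3) in PBS cones, and in NaIO3 microglia with 86.6% (85.6 to 87.6). Hk1 led in bipolar cells, with 79.9% (72.1 to 86.3) in PBS and 90.7% (88.7 to 92.5) in NaIO3. The Hk1 share was thus higher in NaIO3 than in PBS bipolar cells, as it was in rods and cones. In bipolar cells this rests on 27 PBS UMIs of Hk2, and the Hk1 ratio was 1.10 (0.896 to 1.35). Without the limit on rod RNA the log2 ratio of Hk2 there was 0.13, and the part of rod RNA was not tested. In Müller glia the intervals of the Hk1 share overlapped, at 60.0% (40.6 to 77.3) and 62.8% (56.9 to 68.4).

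Eno2 gained share in each class with 20 UMIs in both libraries. It went from 8.64% (8.31 to 8.99) to 25.7% (25 to 26.5) of enolase UMIs in rods, from 23.0% (20.7 to 25.5) to 56.8% (51.6 to 61.9) in cones, and from 18.4% (14.8 to 22.4) to 44.3% (42.0 to 46.5) in bipolar cells. In Müller glia it went from 0.724% (0.235 to 1.68) to 3.27% (2.57 to 4.10). Müller glia stood apart for aldolase and lactate dehydrogenase. Aldoc made up 53.7% (47.7 to 59.5) of aldolase UMIs there in PBS, against 7.99% (7.76 to 8.22) in rods. Ldhb made up 68.6% (60.1 to 76.3) of lactate dehydrogenase UMIs in PBS Müller glia and 52.3% (48.5 to 56.0) in NaIO3 ones, against 5.87% (5.58 to 6.17) in PBS rods. In NaIO3 microglia and bipolar cells Slc16a3 led the transporters, with 78.4% (74.9 to 81.6) and 75.5% (65.8 to 83.6). Pfkfb3 led in NaIO3 microglia with 86.5% (83.9 to 88.9), and Pfkfb2 in NaIO3 rods with 94.8% (93.7 to 95.7). These shares count captured transcripts and are free of the scaling between libraries.

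**Figure D4:**
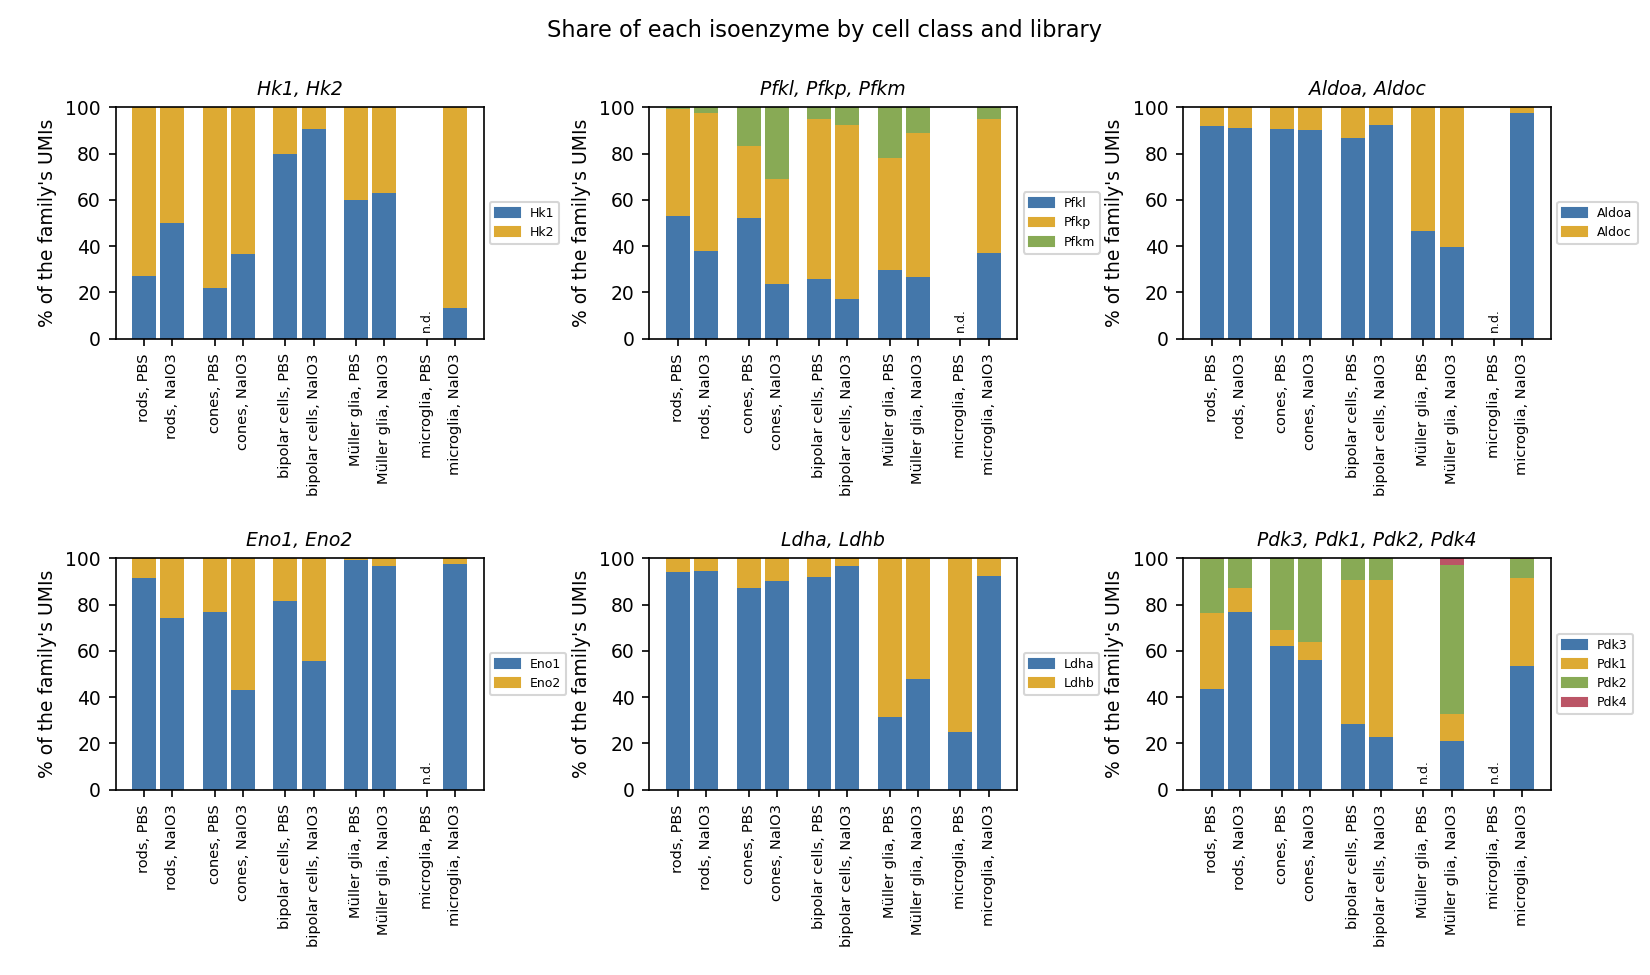
Share of each isoenzyme in its family's UMIs, by class and library, for 6 families; n.d. marks fewer than 20 family UMIs. Hk1 and Eno2 take more of their families in NaIO3 rods and cones than in PBS ones, and Aldoc has its largest share in Müller glia.

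Counted per cell, the difference was spread over the rods. With each cell thinned to 1000 UMIs, the 35 genes gave a median of 17 UMIs in 4806 PBS rods and 11 UMIs in 4559 NaIO3 rods. The 10th and 90th percentiles were 9 and 27 in PBS and 6 and 17 in NaIO3, so the NaIO3 rods lay lower at both ends and the distributions overlapped. Left out as too shallow were 288 PBS and 708 NaIO3 rods, and without thinning the medians were 17.6 and 10.7 per 1000. Medians were 13 and 8.5 UMIs in cones, 15 and 10 in bipolar cells and 16 and 8 in Müller glia. Microglia had the fewest, 3 in 5 PBS cells and 5 in 1259 NaIO3 cells, with 5 and 245 cells left out as too shallow. Without thinning, the microglia medians were 5.10 per 1000 in PBS and 4.62 in NaIO3, so their direction turned.

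**Figure D5:**
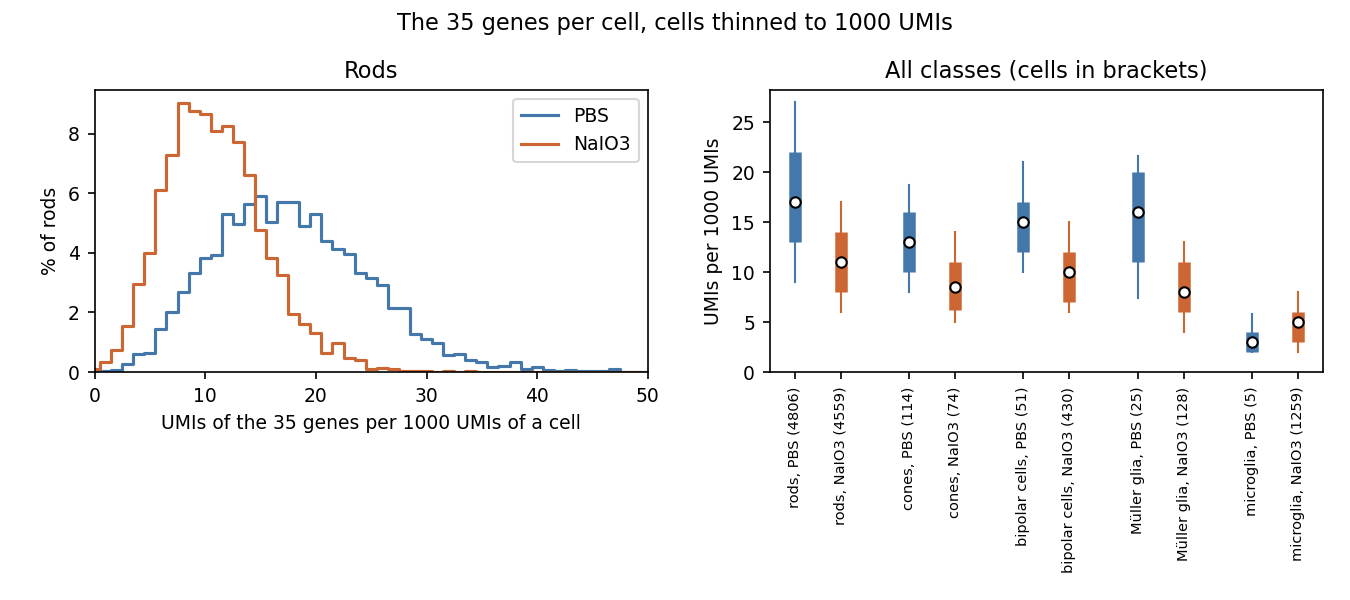
UMIs of the 35 genes per 1000 UMIs of a cell, as the distribution over rods (left) and by class (right: dot, median; thick bar, 25th to 75th percentile; thin bar, 10th to 90th). The PBS rods centre on 17 and the NaIO3 rods on 11.

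Other genes of the pathway were read from 6 lists in rods. By the same 1.5-fold limit, 28.3% of all 7166 genes measured in rods were higher and 8.67% lower. Of 15 further glycolysis genes 4 were measured, 2 of them higher and 0 lower. These were Tigar, which lowers fructose 2,6-bisphosphate, at 42.2 and 71.9 CPM (ratio 1.70, 1.55 to 1.88), and Bpgm, the bisphosphoglycerate mutase, at 92.4 and 156 CPM (1.68, 1.58 to 1.80). Minpp1 and Pgm2 had the lowest ratios, 0.802 (0.699 to 0.920) and 0.844 (0.749 to 0.952). In the pentose phosphate pathway, which makes NADPH, 1 of 7 measured genes was higher and 0 were lower. Rpe was at 1.52 (1.35 to 1.72) and G6pdx, the entry enzyme, at 1.49 (1.30 to 1.70), with Pgls at 0.938 (0.877 to 1.003) and Rpia at 1.007 (0.867 to 1.17) lowest. The other pyruvate and lactate genes had 1 of 6 lower and 0 higher: Dld, the third subunit of pyruvate dehydrogenase, at 120 and 72.9 CPM (0.605, 0.562 to 0.651). Slc16a6 was next at 0.782 (0.748 to 0.818), and Me1 and Pdhx were highest at 1.25 (1.18 to 1.31) and 1.11 (0.992 to 1.24).

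The shuttles that pass glycolytic NADH to mitochondria had 1 of 6 higher and 2 lower, against 28.3% and 8.67% of all genes. Slc25a12, the aspartate-glutamate carrier of neurons, was at 46.4 and 79.5 CPM (1.71, 1.56 to 1.88), and Got1, its cytosolic transaminase partner, at 328 and 199.6 CPM (0.608, 0.582 to 0.636). Slc25a11 was at 0.649 (0.599 to 0.702) and Got2 at 1.14 (1.07 to 1.22). Of 14 citric acid cycle genes 2 were higher, among them Idh3g at 1.65 (1.51 to 1.80), and 0 lower, with Sdhd at 0.689 (0.625 to 0.758) and Idh3a at 0.706 (0.654 to 0.762) lowest. The median ratio of the cycle genes was 1.14, against 0.678 for the members. With TMM scaling 0 of the 14 cycle genes were higher and 4 lower, where 852 of all genes were higher and 1469 lower. Of the first 4 lists, 0 genes were then higher, and those lower were 2 of the further glycolysis genes, 0 of the pentose phosphate genes, 3 of the pyruvate and lactate genes and 2 of the shuttle genes.

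Genes of the hypoxia response outside glycolysis went both ways, 3 of 14 higher and 4 lower, against 28.3% and 8.67% of all genes. Their median ratio was 0.945. Epas1, which encodes a hypoxia-inducible factor, stood at 72.6 and 169 CPM in rods (2.33, 2.18 to 2.50). Vegfa, the vascular growth factor, stood at 32.7 and 63.1 CPM (1.93, 1.74 to 2.15). Hif1a was at 584 and 909 CPM (1.56, 1.52 to 1.60). Bnip3, a mitophagy receptor, was at 111 and 44.1 CPM (0.398, 0.364 to 0.435), and Egln1, the oxygen sensor that marks these factors for decay, at 161 and 66.6 CPM (0.415, 0.386 to 0.445). Epas1, Hif1a and Vegfa thus lay above 1, and Bnip3 and Egln1 below it. The members were split too, with Hk1 and Pdk3 above 1 and most glycolytic enzymes below. Activity of the factors was not tested. With TMM scaling 2 of the 14 hypoxia-response genes were higher and 6 lower.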

How the data were processed

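The authors deposited raw UMI counts per gene and barcode from Cell Ranger 3.0.2, per the file headers; reads were mapped to mm10, per the submitters' processing notes. Papain-digested retinas were used, per the labels' protocols. Total counts were 26605477 (6242 barcodes) in PBS and 75981079 (9746) in NaIO3.

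Cells with at least 500 UMIs, 300 genes and at most 15% mitochondrial UMIs were kept: 5573 and 9441, with medians of 2486 and 2951 UMIs. Classes were gated on panels of 10 markers (at least 3 of its own and 2 times any other panel; rods with at most 2 of another). After seeing the panels, cells outside the rods were limited in rod RNA, to 20% of the median in rods. Scrublet marked 180 NaIO3 cells (1.91%), which were kept, and 0 PBS cells, where it has not worked.

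Counts were summed per class with scanpy 1.11.5, numpy 2.4.6, pandas 2.3.3 and scipy 1.17.1 (Python 3.11.15). TMM factors came from edgeR 4.0.16 (R 4.3.3). Ratios have exact conditional binomial intervals, levels exact Poisson and shares Clopper-Pearson ones; matched ratios have approximate intervals, their ranges weighted by the smaller number of cells. A count of 0 was bounded by 3 counts. A gene is called at 1.5-fold where it reaches 20 CPM in PBS or NaIO3 and 20 UMIs over both. The calls and intervals were tested on simulated data. Isoenzyme shares were not scaled by gene length.

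Members and lists were chosen with earlier results of these data known. All 35 members are reported by role. Of each list, the 2 highest and 2 lowest ratios in rods are named; Hif1a was added after its value was seen, and 1 citric acid cycle gene is not reported here. Gene positions come from GENCODE M21, where 30934 gene IDs were found. Alternatives covered cell filters, gates, doublets, scaling, free rod RNA and the level filter.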

Additional observations from a re-analysis of the deposited data

Results flagged for a closer look

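Gapdh and Pgk1 moved apart between classes, each past 1.5-fold with an interval that leaves out 1; the differences between classes were not tested. Gapdh had a ratio of NaIO3 over PBS of 2.02 in microglia, from 20 PBS UMIs in 10 cells, and 0.657 in rods. At matched mitochondrial share the rod ratio was 0.847 (0.832 to 0.863), past neither limit. Pgk1 had a ratio of 1.67 in Müller glia, from 37 PBS UMIs, against 0.621 in rods and 0.653 in bipolar cells. Both of the higher values turned below 1 when the limit on rod RNA in other classes was lifted.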

How the results depend on the processing

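No paired analysis was possible because each group is 1 library, which also leaves no replicate to omit. Depth limits microglia (10 PBS cells) and Müller glia (30) most. In rods 158 of 270 member values under alternatives moved by less than counting error and 112 moved more. No member past 1.5-fold in rods changed direction, but 5 members short of it did, in 10 values: Pdhb, Dlat, Pfkfb2, Mpc1 and Mpc2, under TMM or median-of-ratios scaling, the 5% mitochondrial limit or mean per-cell CPM.

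With TMM and with median-of-ratios scaling, members higher were 1 in rods, 1 in cones and 2 in bipolar cells under either, members lower in rods 19 under either, and members lower in microglia 2 and 3. Of all genes in rods, 852 were higher and 1469 lower with TMM, and 907 and 1387 with median-of-ratios scaling. In bipolar cells these were 1982 and 1425, and 1968 and 1456. In microglia they were 1925 and 1588, and 1826 and 1663. For the settings that follow, counts of all genes are not given, so the member counts do not tell members from genes at large. Without the filter on low members, those higher were 4 in rods, 4 in bipolar cells and 4 in Müller glia. Members higher in cones were 1 without the deepest 5% of cells, without mt- genes and with mean per-cell CPM. In bipolar cells, against 1, members higher were 2 with no mitochondrial limit, at 5 markers, without doublets, without the deepest cells, at the 10% rod RNA limit, with mean per-cell CPM and with free rod RNA subtracted. They were 4 at the 5% mitochondrial limit, which leaves 2 PBS cells and 8 members lower, and 4 with no rod RNA limit. Müller glia had 1 higher with no mitochondrial limit, 4 at the 10% rod RNA limit and 4 with mean per-cell CPM. Microglia had 5 higher at the 5% mitochondrial limit, 5 with mean per-cell CPM, and 2 higher and 18 lower with no rod RNA limit.

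Reversed log2 ratios at the 5% mitochondrial limit, where cones and bipolar cells have 2 PBS cells each, were 0.14 for Bsg in cones and 0.56, 0.70 and -1.61 for Aldoa, Mpc1 and Pdk1 in bipolar cells. With no rod RNA limit they were 0.13 for Hk2 in bipolar cells, -0.23 for Pgk1 in Müller glia, and -0.34, -1.61 and -0.15 for Gapdh, Eno1 and Ldha in microglia; the cause was not tested. The 2 rod RNA limits were chosen after seeing the data. With free rod RNA subtracted, 4 of 31 combinations had another leading isoenzyme.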
